A study of Mus musculus with 21 samples.

Results

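Cell adhesion molecules were followed at the RNA level in 3 macrophage populations sorted from mouse kidneys, with 7 members taken by gene symbol from the 34236 gene names of the count table: Cadm1, Vcam1, Icam1, Pecam1, Selplg, Cd44 and Cd24a. Each member had 1 line in the table, and its level is given as CPM, its share of all counts of the library scaled to the usual common total. The members were chosen with their levels in these libraries already known, so their differences between populations of Sham kidneys are described without a test. Male C57BL/6J mice, labelled 24 weeks of age, had either renal artery stenosis (RAS), made with a cuff on the right renal artery, or a Sham operation in which the artery was exposed without a cuff. Live CD45+ cells negative for lymphocyte, red cell, natural killer and neutrophil surface markers were sorted as F4/80+CD64+ macrophages and divided into CD11chiMϕ (CD11b high, CD11c high), CD11cloMϕ (CD11b high, CD11c low to negative) and kidney-resident macrophages (KRM, intermediate for both). CD11chiMϕ and CD11cloMϕ are described by the study as monocyte-derived. There were 3 Sham and 4 RAS libraries of CD11chiMϕ, 3 Sham and 4 RAS libraries of CD11cloMϕ, and 4 Sham and 3 RAS libraries of KRM, 21 in all. No group carried a transgene. The labels do not say that the libraries of a group came from separate mice, so the p-values measure only the spread between these libraries.

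Adhesion molecules hold leukocytes to vessel walls, to matrix and to neighbouring cells. Selectins on endothelium catch rolling leukocytes through glycoproteins such as the product of Selplg, integrins then bind immunoglobulin-type molecules such as those of Icam1 and Vcam1, and homophilic molecules such as that of Pecam1 act during passage between endothelial cells. Hyaluronan in the matrix is bound by CD44. Resident macrophages of several organs carry VCAM1, and the kidney epithelium and leukocytes of several lineages can carry CD24.

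Library totals ran from 6891142 to 18592381 counts, and 14607 to 17703 genes were counted per library. Several libraries stood apart. KRM RAS replicates 2 and 3 held summed levels of 5234 and 3821 CPM for 10 distal nephron and collecting duct markers, against 113 CPM in KRM RAS replicate 1 and 4.49 to 177 CPM in KRM from Sham kidneys. Of these markers Umod, uromodulin of the thick ascending limb, was at 2252 and 1629.8 CPM in that pair and at 62.0 CPM in replicate 1, and Aqp2, the water channel of collecting duct principal cells, was at 684, 468 and 0.335 CPM. The same pair had fibroblast and pericyte marker sums of 798 and 826 CPM, against 52.5 CPM in KRM RAS replicate 1. CD11cloMϕ RAS replicate 3 had a macrophage identity sum of 12129 CPM over 10 genes, against 3400 to 4665 CPM in the other CD11cloMϕ libraries. All 3 libraries numbered 3 from Sham kidneys carried proximal tubule transcripts, with sums of 14725 CPM in CD11chiMϕ, 6402 CPM in CD11cloMϕ and 2541 CPM in KRM. Itgax, which encodes CD11c, was at 110.3 to 779.7 CPM in CD11chiMϕ, 8.76 to 52.1 CPM in CD11cloMϕ and 167 to 430.2 CPM in KRM, so KRM, sorted as intermediate, overlapped CD11chiMϕ in its RNA. Emr1, which encodes F4/80, was at 1018 to 1718 CPM in KRM, and CD11cloMϕ RAS replicate 3 at 1645 CPM lay within that range. In CD11chiMϕ from RAS kidneys Emr1 ranged from 101 to 858 CPM, and Cd209a, a dendritic cell marker, from 781 to 3608 CPM. Neutrophil markers S100a8 and S100a9 were at 40.7 CPM or more in every CD11cloMϕ library, where Ly6g, the neutrophil antigen removed by the sort, was at 0.412 CPM or less. Called differences of the members that rest on the KRM libraries from RAS kidneys are given with and without replicates 2 and 3. For the other genes and the cell type markers this holds only in part.

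Per kilobase of merged exon, which allows genes to be compared, Selplg was the most abundant member in KRM from Sham kidneys at 136 ± 17.5 CPM per kb (SD, n = 4), followed by Cadm1 at 62.6 ± 1.82, Vcam1 at 35.1 ± 5.78, Icam1 at 31.4 ± 2.19, Cd44 at 16.8 ± 3.06, Cd24a at 1.56 ± 0.575 and Pecam1 at 1.45 ± 0.329. CD11cloMϕ from Sham kidneys had another order, with Cd24a first at 207 ± 61.7 CPM per kb (SD, n = 3), then Selplg at 167 ± 17.5, Cd44 at 90.6 ± 8.58 and Icam1 at 38.5 ± 5.70, and with Cadm1 last at 0.756 ± 0.106. Thus Cadm1 was second in the one population and last in the other, and Cd24a was sixth and first. In CD11chiMϕ from Sham kidneys Selplg led at 121 ± 69.2 CPM per kb, and Cd44, Icam1, Cd24a and Cadm1 lay together between 32.4 and 23.3 CPM per kb with overlapping libraries.

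**Figure D1:**
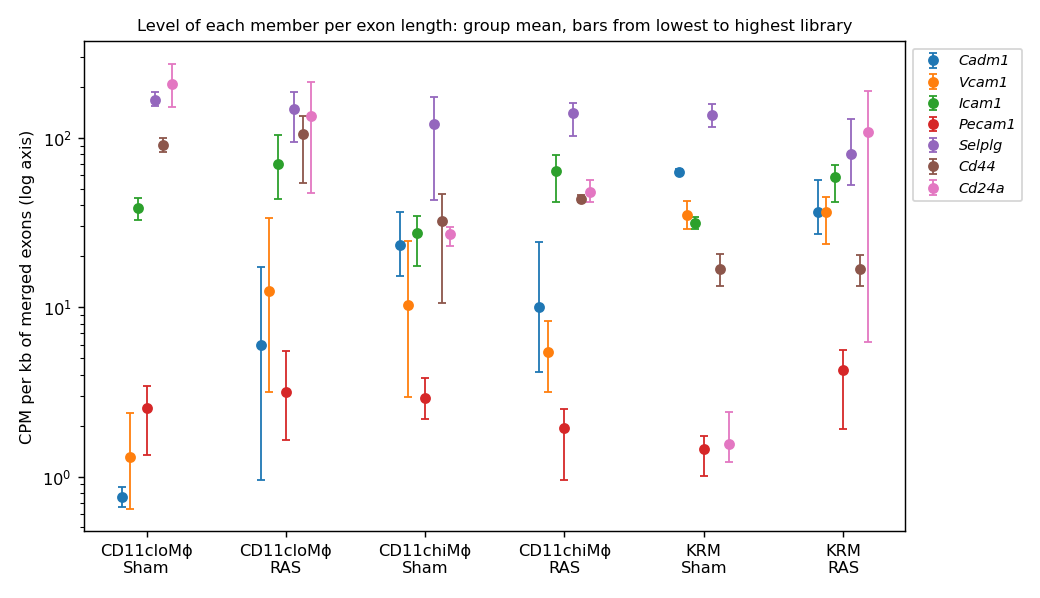
Level of each member in CPM per kilobase of merged exons (log axis) in the 6 groups, with points for group means and bars from the lowest to the highest library (n = 3 or 4). Cadm1 and Vcam1 stand high in KRM and low in CD11cloMϕ of Sham kidneys, Cd24a the reverse, and Selplg is among the most abundant members in every group.

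Cadm1 encodes a homophilic and heterophilic immunoglobulin-type adhesion molecule known for nerve, epithelial and mast cell contacts (chromosome 9, 47530173 to 47857637, plus strand, GRCm38, with 13 merged exons). In KRM it stood at 652, 680.0, 636 and 645 CPM in the Sham libraries and at 585, 281 and 281 CPM in the RAS libraries. In CD11chiMϕ the values were 193, 379 and 159 CPM in Sham and 253, 75.0, 47.4 and 43.0 CPM in RAS. In CD11cloMϕ they were 9.07, 6.88 and 7.74 CPM in Sham and 17.2, 9.92, 181 and 43.5 CPM in RAS. The KRM libraries from Sham kidneys lay within 1.07-fold of each other and above every other library, and the Sham libraries of CD11cloMϕ lay below every other library. By group means the order was KRM Sham, KRM RAS, CD11chiMϕ Sham, CD11chiMϕ RAS, CD11cloMϕ RAS and CD11cloMϕ Sham. Among neighbours in that order, only the highest pair and the lowest pair did not overlap. All pairs of Sham populations were without overlap, as were 24.7% of all genes for KRM above CD11cloMϕ, 11.9% for KRM above CD11chiMϕ and 12.4% for CD11chiMϕ above CD11cloMϕ. In Sham kidneys the fitted log2 difference was 6.35 between KRM and CD11cloMϕ, 1.41 between KRM and CD11chiMϕ and 4.98 between CD11chiMϕ and CD11cloMϕ, where the median over all genes was itself at 0.13. The spread within groups widened in RAS: the highest library exceeded the lowest 18.2-fold in CD11cloMϕ and 5.88-fold in CD11chiMϕ. The high library of CD11cloMϕ was replicate 3, the one with the macrophage identity sum of 12129 CPM.

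Vcam1 encodes the immunoglobulin-type ligand of the integrin α4β1 and marks resident macrophages of several tissues (chromosome 3, 116109949 to 116129688, minus strand, GRCm38, with 10 merged exons). KRM held it at 284, 330.0, 374 and 257 CPM in Sham and at 208, 362 and 398 CPM in RAS. In CD11chiMϕ it was at 30.5, 217 and 26.1 CPM in Sham and at 73.4, 28.2, 57.3 and 33.5 CPM in RAS. CD11cloMϕ had 20.9, 8.28 and 5.69 CPM in Sham and 28.0, 37.6, 299.95 and 78.1 CPM in RAS. KRM was the highest population in Sham kidneys without overlap, with its lowest library at 257 CPM above CD11chiMϕ Sham replicate 2 at 217 CPM. By group means KRM RAS stood first, then KRM Sham, CD11cloMϕ RAS, CD11chiMϕ Sham, CD11chiMϕ RAS and CD11cloMϕ Sham. Of these neighbours only the last pair did not overlap. The gene is overlapped by an antisense gene (Gm43109) at its exons, and since the counting is not stated to use strand, reads of the pair cannot be told apart.

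**Figure D2:**
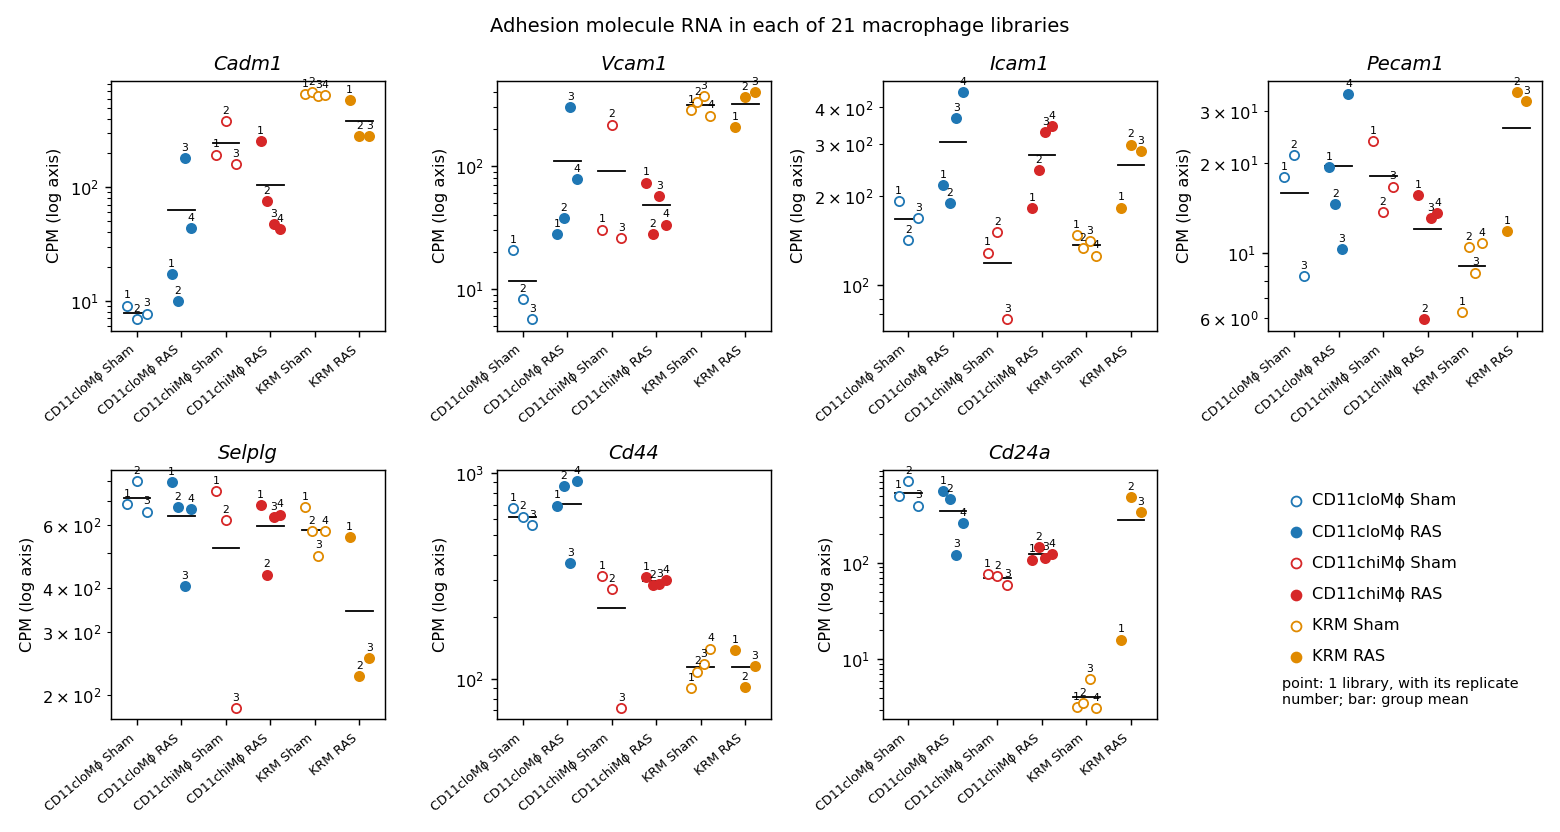
CPM (log axis) of the 7 members in each of the 21 libraries, grouped by population and treatment, with the replicate number above each point, open points for Sham, filled points for RAS and a bar for the group mean. Cadm1 in KRM from Sham kidneys sits between 636 and 680.0 CPM, and Cd24a in KRM lies between 3.13 and 6.24 CPM in Sham and at 16.1, 336 and 485 CPM in RAS.

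Icam1 encodes the endothelial and leukocyte ligand of the β2 integrins and is a known target of NF-kB signalling. It was at 148, 133, 141 and 126 CPM in KRM from Sham kidneys and at 183, 299.6 and 284 CPM in KRM from RAS kidneys. CD11chiMϕ showed 129, 151 and 76.6 CPM in Sham and 183, 246, 331 and 346 CPM in RAS. CD11cloMϕ showed 192, 142 and 169 CPM in Sham and 218, 190.3, 368 and 450.0 CPM in RAS. Every RAS library exceeded every Sham library of its population in KRM and CD11chiMϕ, and in CD11cloMϕ all but RAS replicate 2 did. Populations overlapped within each treatment, and so did every neighbour in the order of group means, from CD11cloMϕ RAS down to CD11chiMϕ Sham. Antisense gene Gm47079 overlaps its exons, with the same limit as for Vcam1.

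The RefSeq promoter window of Icam1 (GRCm38.p6, chr9:21015690-21015989, plus strand, 300 bases, 64.7% G or C) is shown because Icam1 was the one member whose fitted change in RAS was positive in all 3 populations, with Nfkbie, an NF-kB inhibitor gene, among the genes most like it. Capitals mark an NF-kB element with the letters GGAAATTCC. They also mark the letters TATAAA of a TATA box, at bases 264 to 269 of the window. GENCODE vM21 starts the gene at 21015985, near the end of the window. The window was laid around another start, so no distance to a start is given. A GC box, GGGCGG, is marked where it was read on the minus strand.
Icam1: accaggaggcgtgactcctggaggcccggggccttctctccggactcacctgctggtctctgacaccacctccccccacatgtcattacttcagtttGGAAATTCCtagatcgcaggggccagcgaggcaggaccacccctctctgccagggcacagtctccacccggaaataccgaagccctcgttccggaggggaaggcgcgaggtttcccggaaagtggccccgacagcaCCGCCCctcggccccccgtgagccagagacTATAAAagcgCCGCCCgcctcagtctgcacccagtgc
Both strands were searched. Of 32851 promoter windows of the same length, 0.317% held GGAAATTCC, 13.6% TATAAA and 35.7% GGGCGG. The Icam1 window held 1 match to the NF-kB element, at bases 98 to 106 of the window. The motifs were chosen with the gene known, and a match is a description of letters, not a bound site.

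Pecam1 encodes CD31, a homophilic molecule of endothelium, platelets and leukocytes (chromosome 11, 106654217 to 106750628, minus strand, GRCm38). It was the least abundant member per exon length in KRM and CD11chiMϕ of either treatment and in CD11cloMϕ of RAS kidneys. KRM had 6.29, 10.4, 8.55 and 10.8 CPM in Sham and 11.8, 34.7 and 32.5 CPM in RAS. Values in CD11chiMϕ were 23.8, 13.7 and 16.7 CPM in Sham and 15.6, 5.95, 13.04 and 13.6 CPM in RAS, and those in CD11cloMϕ were 17.9, 21.3 and 8.31 CPM in Sham and 19.4, 14.5, 10.3 and 34.3 CPM in RAS. KRM RAS replicates 2 and 3 and CD11cloMϕ RAS replicate 4 were the highest libraries, and these 3 also had the highest sums of 12 endothelial markers, 354, 305 and 330 CPM, against 22.6 to 300 CPM in the others. The part of endothelial RNA in the Pecam1 values was not tested. All neighbouring groups overlapped in the order of their means.

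Selplg encodes PSGL-1, the mucin-type ligand of P-selectin on leukocytes (chromosome 5, 113818536 to 113832644, minus strand, GRCm38). In KRM it was at 675, 576, 492 and 578 CPM in Sham and at 554, 226 and 254 CPM in RAS. CD11chiMϕ had 748, 619 and 184 CPM in Sham and 684, 435, 632 and 642 CPM in RAS. CD11cloMϕ had 688, 798 and 654 CPM in Sham and 794, 675, 404 and 667 CPM in RAS. All neighbouring groups overlapped, and in Sham kidneys no pair of populations differed by more than 0.45 in fitted log2. The low libraries were CD11chiMϕ Sham replicate 3, with the proximal tubule sum of 14725 CPM, and KRM RAS replicates 2 and 3, with the distal nephron sums given above. The genes most like Selplg across the 21 libraries included Sfpi1, the myeloid transcription factor PU.1, at r = 0.97, and Irf5 at r = 0.97.

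Cd44 encodes the hyaluronan receptor, which also binds osteopontin, the product of Spp1. KRM held it at 90.0, 108, 117 and 139.9 CPM in Sham and at 138, 90.7 and 115 CPM in RAS. CD11chiMϕ had 314, 272 and 72.0 CPM in Sham and 312, 285, 288 and 302 CPM in RAS. CD11cloMϕ had 672, 613 and 556 CPM in Sham and 693, 865, 365 and 913 CPM in RAS. CD11cloMϕ was the highest population and KRM the lowest in RAS kidneys without overlap, and in Sham kidneys the KRM libraries lay below those of CD11chiMϕ except for CD11chiMϕ replicate 3. By group means the order was CD11cloMϕ RAS, CD11cloMϕ Sham, CD11chiMϕ RAS, CD11chiMϕ Sham, KRM RAS and KRM Sham. Only the step from CD11cloMϕ Sham to CD11chiMϕ RAS had no overlap.

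The RefSeq promoter window of Cd44 (GRCm38.p6, chr2:102901616-102901915, minus strand, 300 bases, 58.0% G or C) is shown because Cd44 was called in every comparison between populations of RAS kidneys. Capitals mark GAGGAA (the core bound by PU.1, read here on the minus strand of the window) and GGGCGG.
Cd44: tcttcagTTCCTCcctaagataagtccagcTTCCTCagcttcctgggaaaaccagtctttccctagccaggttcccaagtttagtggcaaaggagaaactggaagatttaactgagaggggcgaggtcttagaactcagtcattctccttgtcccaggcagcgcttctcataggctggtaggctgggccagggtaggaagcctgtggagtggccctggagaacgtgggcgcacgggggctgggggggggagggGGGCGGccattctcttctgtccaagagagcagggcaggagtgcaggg
GAGGAA occurred in 28.3% of the 32851 windows, and the Cd44 window held 2 matches, while neither GGAAATTCC nor TATAAA was found in it.

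Cd24a encodes the small, heavily glycosylated surface protein CD24, a ligand of P-selectin and of sialic acid-binding lectins such as that of Siglecg (chromosome 10, 43578284 to 43584265, plus strand, GRCm38). The mouse genome holds retrotransposed copies of this gene, so its count is uncertain to the extent that reads were shared with them. In KRM it was at 3.20, 3.54, 6.24 and 3.13 CPM in Sham and at 16.1, 485 and 336 CPM in RAS. CD11chiMϕ had 76.2, 72.9 and 59.7 CPM in Sham and 108, 146, 114 and 122 CPM in RAS. CD11cloMϕ had 499.9, 707 and 395 CPM in Sham and 552, 460.5, 122 and 260.1 CPM in RAS. The Sham populations did not overlap, with fitted log2 differences of -7.04 for KRM over CD11cloMϕ, -4.14 for KRM over CD11chiMϕ and -2.87 for CD11chiMϕ over CD11cloMϕ. In these directions 24.7%, 12% and 13.6% of all genes did not overlap either, and since the members were chosen for such differences nothing is read from the counts. CD11cloMϕ RAS replicate 3, the library with the high Cadm1 and Vcam1, had the lowest Cd24a and Cd44 of its group.

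Cadm1 and Cd24a ran opposite to each other. The ratio of Cadm1 to Cd24a counts was 102 to 206 in the 4 KRM libraries from Sham kidneys, 2.53 to 5.20 in CD11chiMϕ Sham and 0.00973 to 0.0196 in CD11cloMϕ Sham. It was 36.4 in KRM RAS replicate 1 but 0.580 and 0.836 in replicates 2 and 3, and it was 1.48 in CD11cloMϕ RAS replicate 3 against 0.0215 to 0.167 in the rest of that group. Over the 21 libraries, which are not independent points since they share populations and treatments, log2 CPM of Cadm1 correlated with that of Vcam1 at r = 0.84, of Cd44 at -0.83 and of Cd24a at -0.80. Among 8892 genes with an average log2 CPM of at least 3, the genes most like Cadm1 were Cd72 (r = 0.99), Zmynd15 (0.97) and Cd81 (0.97), and those most like Vcam1 were Cttnbp2nl (0.94), Loxl3 (0.94) and Rcn2 (0.92). For Icam1 they were Nfe2l2 (0.93), Nfkbie (0.91) and Arid5a (0.91), for Cd44 Samhd1 (0.98), Siglec5 (0.97) and Sirpb1b (0.97), and for Cd24a Vcl (0.96), Serpinb1a (0.96) and Nfil3 (0.94). Pecam1 had no gene above r = 0.82.

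RAS against Sham in KRM asked which adhesion transcripts changed in resident macrophages of the stenotic kidney. Icam1, Pecam1 and Cd24a rose by edgeR, and no member passed that test in the other direction. The log2 fold change was 0.83 ± 0.20 (SE) for Icam1 (adjusted p = 0.0413), 1.50 ± 0.38 for Pecam1 (adjusted p = 0.0484) and 6.03 ± 1.00 for Cd24a (adjusted p = 0.0231), by edgeR's quasi-likelihood test with Benjamini-Hochberg adjustment over 12852 genes and with 3 RAS against 4 Sham libraries. Over all genes 9.7% were called, 7.77% as higher and 1.94% as lower. The share among the 7 members was not tested against that of all genes. Groups did not overlap for these 3 genes in the upward direction, where 17.1% of all genes did not, and for Cadm1 in the downward direction, where 8.23% did not. Cadm1 had a log2 fold change of -0.85 ± 0.27 (adjusted p = 0.0748 by edgeR) and Selplg of -0.83 ± 0.32 (adjusted p = 0.117). DESeq2 called both of them lower, among 5 members and 24.6% of all genes called. Vcam1 differed by -0.01 with a 95% interval from -0.57 to 0.56, and Cd44 by -0.05 with an interval from -0.48 to 0.37.

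These KRM calls depended on which libraries were included. With only KRM RAS replicate 1, assumed to vary like the Sham libraries, the log2 fold change was 0.29 for Icam1 (adjusted p = 0.688 by edgeR), 0.27 for Pecam1 (0.887), 1.86 for Cd24a (0.133) and -0.29 for Cadm1 (0.64). Without replicate 1, 5 members and 50.2% of all genes were called by edgeR: Icam1 at 0.99 (adjusted p = 0.000476), Pecam1 at 1.80 (0.000502), Cd24a at 6.51 (5.65e-06), Cadm1 at -1.32 (0.000131) and Selplg at -1.38 (0.000744). All 3 main calls were also lost without KRM RAS replicate 2 or 3 or KRM Sham replicate 1, 2 or 4, with log2 fold changes of 0.69 to 0.91 for Icam1, 1.24 to 1.59 for Pecam1 and 5.38 to 5.97 for Cd24a and adjusted p by edgeR from 0.0690 for Cd24a to 0.188 for Pecam1, where 0.204% to 0.338% of all genes were called, and without KRM Sham replicate 3 those of Icam1 (0.0647) and Pecam1 (0.0782) were lost. With the replicate number as a block, though the numbers were not shown to pair these libraries, all 3 calls were lost as well, at 0.76 for Icam1 (adjusted p = 0.183 by edgeR), 1.47 for Pecam1 (0.119) and 5.21 for Cd24a (0.117). Cd24a beside the distal nephron markers was at 485 CPM with 5234 CPM, 336 CPM with 3821 CPM and 16.1 CPM with 113 CPM in KRM RAS replicates 2, 3 and 1. In CD11cloMϕ from Sham kidneys, in contrast, Cd24a reached 707 CPM in a library with a distal nephron sum of 2.10 CPM. B and T cells can also carry Cd24a. The B cell marker Ms4a1 was at 1.13 to 3.21 CPM in KRM from RAS kidneys and 0.114 to 0.940 CPM in Sham, and the sum of 7 B and plasma cell markers was 2795, 498 and 459 CPM in KRM RAS replicates 1, 2 and 3 against 938 to 1119 CPM in Sham. The sum of 8 T and natural killer cell markers was 385, 43.4 and 39.6 CPM in KRM RAS replicates 1, 2 and 3 against 2.36 to 3.33 CPM in Sham. The part of tubular, lymphocyte and endothelial RNA in these differences was not tested. In sorted bulk samples fewer cells of a type and less RNA per cell cannot be told apart.

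**Figure D3:**
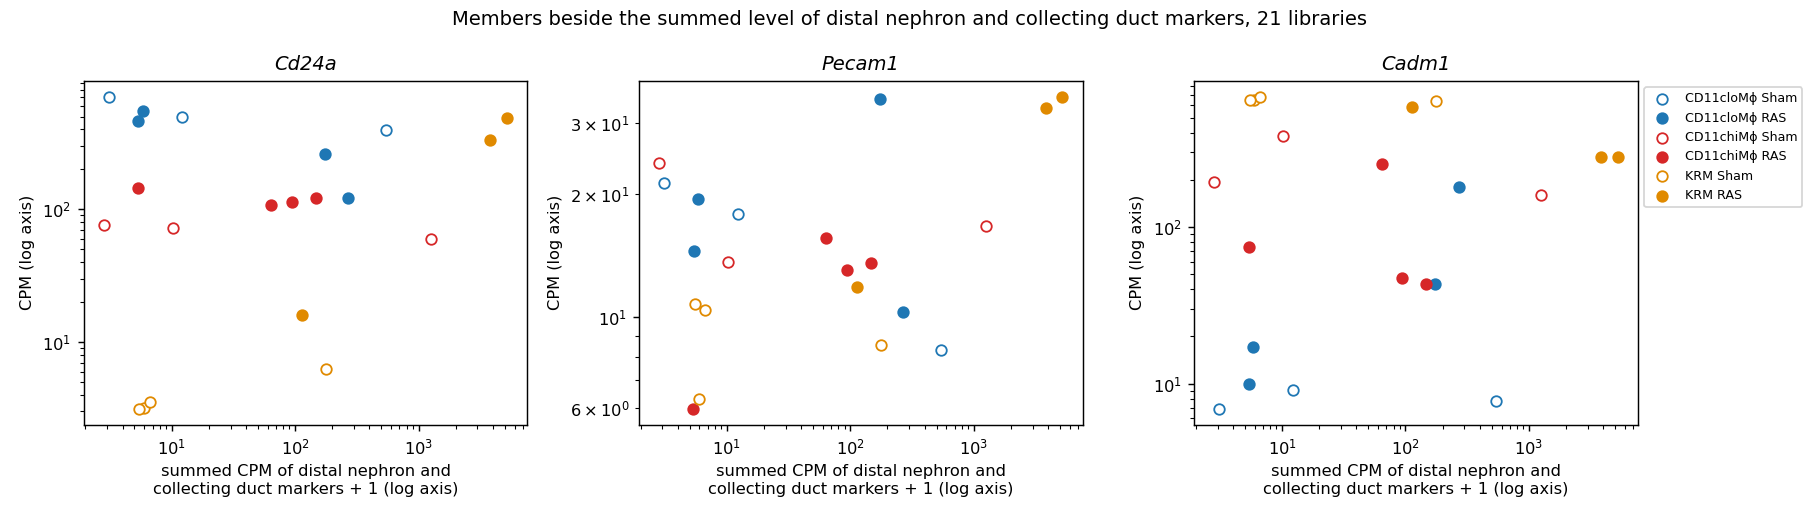
CPM of Cd24a, Pecam1 and Cadm1 (log axis) against the summed CPM of 10 distal nephron and collecting duct markers plus 1 (log axis) in the 21 libraries, open for Sham and filled for RAS. KRM RAS replicates 2 and 3, at sums of 5234 and 3821 CPM, carry high Cd24a and Pecam1 and lower Cadm1 than KRM RAS replicate 1, while 4 CD11cloMϕ libraries carry Cd24a at 460.5 to 707 CPM with sums of 2.10 to 11.2 CPM and the other 3 have sums of 173 to 541 CPM.

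RAS against Sham in CD11chiMϕ gave 0 called members and 0 of 12739 genes by edgeR (0% called), with 2 members and 9.79% of genes at an unadjusted p under 0.05. DESeq2 called 1 member (Icam1, log2 fold change 1.34, adjusted p = 0.0470) and 1.48% of genes, and limma 0 of either. Icam1 had a log2 fold change of 1.33 ± 0.38 (adjusted p = 0.508 by edgeR) and Cd24a one of 0.88 ± 0.24 (adjusted p = 0.508), and both had every RAS library above every Sham library, as did 4.47% of all genes. Cadm1 stood at -1.25 ± 0.57 (adjusted p = 0.513), with the RAS libraries falling into 1 at 253 CPM and 3 at 75.0 CPM or less. Without CD11chiMϕ RAS replicate 1 it was -1.99 (adjusted p = 0.0933 by edgeR). The low 3 had macrophage identity sums of 4595, 2152 and 1812 CPM against 8137 CPM in the first. Vcam1 was -0.82 (adjusted p = 0.675), and without CD11chiMϕ Sham replicate 2, its highest library, it was 0.73 (adjusted p = 0.619 by edgeR). The dendritic cell marker sum was 4503 and 4856 CPM in CD11chiMϕ RAS replicates 3 and 4, where Icam1 was highest, against 1316 and 2235 CPM in replicates 1 and 2, and its part in the Icam1 values was not tested.

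RAS against Sham in CD11cloMϕ also gave 0 called members and 0 of 12301 genes by edgeR (0% called), with 3 members and 8.96% of genes at an unadjusted p under 0.05. DESeq2 called 1 member (Cadm1, log2 fold change 3.15, adjusted p = 0.0245) and 0.87% of genes, and limma 0 of either. Vcam1 had a log2 fold change of 3.39 ± 1.00 and Cadm1 of 3.13 ± 1.04 (both adjusted p = 0.553 by edgeR), and for both every RAS library lay above every Sham library, as for 3.46% of all genes. Without CD11cloMϕ RAS replicate 3, the library with the high macrophage identity sum, these became 2.12 for Vcam1 and 1.65 for Cadm1 (both adjusted p = 0.775 by edgeR). Icam1 was at 0.96 ± 0.35 (adjusted p = 0.553), so its fitted change was positive in all 3 populations, but only the one in KRM passed the test. Selplg was at -0.11 with a 95% interval from -0.60 to 0.38 and Cd44 at 0.27 with one from -0.40 to 0.94.

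**Figure D4:**
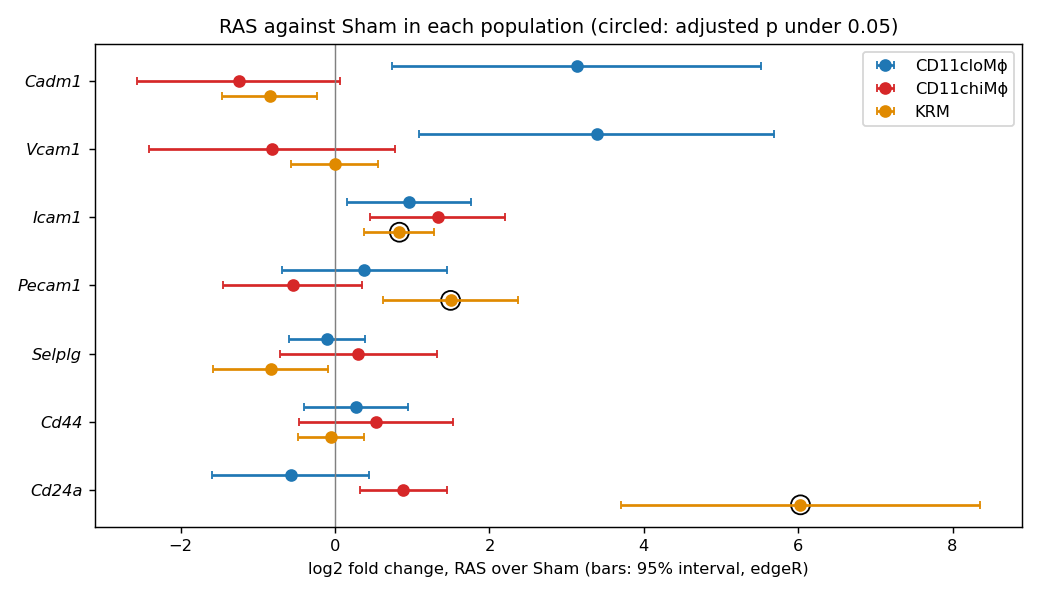
Log2 fold change of RAS over Sham for each member in CD11cloMϕ, CD11chiMϕ and KRM, with 95% intervals from edgeR's quasi-likelihood fit and a circle around values with an adjusted p under 0.05. The 3 circled values are Icam1, Pecam1 and Cd24a in KRM, and the widest intervals are those of Cadm1 and Vcam1 in CD11cloMϕ and of Cd24a in KRM.

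The difference between the responses was tested as an interaction. It contains the Sham levels of both populations, known when the members were chosen, so its p-values are not independent of that choice. For Cd24a in KRM over CD11cloMϕ the fitted log2 difference was -7.04 in Sham kidneys and -0.49 in RAS kidneys. The RAS response of Cd24a was 6.56 ± 1.10 larger on the log2 scale in KRM than in CD11cloMϕ (adjusted p = 0.0394 by edgeR), where 0.245% of 13877 genes were called. For the same pair of populations Cadm1 gave -4.02 ± 1.12 (adjusted p = 0.0871) and Vcam1 -3.42 ± 1.06 (adjusted p = 0.102). Without KRM RAS replicates 2 and 3 the Cd24a difference was 2.43 (adjusted p = 0.611 by edgeR), that of Cadm1 -3.42 (0.831) and that of Vcam1 -4.06 (0.823). A replicate block put the Cd24a difference at 6.01 (adjusted p = 0.138 by edgeR). The call was also lost without KRM RAS replicate 2 or 3, any 1 of the KRM Sham libraries, CD11cloMϕ Sham replicate 1 or 2 or CD11cloMϕ RAS replicate 2, 3 or 4, with values from 5.93 to 6.82. Without KRM RAS replicate 1 it was 7.09 (adjusted p = 0.000145 by edgeR), and Cadm1 at -4.48 (0.0304) and Selplg at -1.31 (0.0190) passed too, with 16.1% of all genes called. Between KRM and CD11chiMϕ edgeR called 0 members and 0 of 14137 genes (0% called), with 2 members and 21.2% of genes at an unadjusted p under 0.05, while DESeq2 called 2 members (Cd24a and Pecam1) and 8.67% of genes and limma 1 member and 0.949% of genes. Cd24a there was 5.10 ± 0.98 (adjusted p = 0.0980 by edgeR) and Pecam1 1.98 ± 0.57 (adjusted p = 0.102), and without KRM RAS replicate 1 they were 5.64 (4.37e-05) and 2.32 (0.0221), with 7.4% of all genes called. Without KRM RAS replicates 2 and 3 they were 0.95 (adjusted p = 0.983 by edgeR) and 0.79 (0.985). Between CD11chiMϕ and CD11cloMϕ edgeR called 0 members and 0 of 13540 genes (0% called), with 3 members and 6.65% of genes at an unadjusted p under 0.05, and DESeq2 and limma called 0 members, with 0.096% and 0% of genes. For that pair Cadm1 stood at -4.34 ± 1.22 and Vcam1 at -4.16 ± 1.29 (both adjusted p = 0.735 by edgeR). The 3 interactions share libraries, and each is given for its own.

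Between populations of RAS kidneys Cd44 was called in all 3 comparisons. It was lower in KRM than in CD11cloMϕ by a log2 difference of -2.84 ± 0.38 (adjusted p = 0.0146 by edgeR, 9.17% of 13179 genes called), lower in KRM than in CD11chiMϕ by -1.62 ± 0.23 (adjusted p = 0.0177, 9.23% of 13226 genes called) and lower in CD11chiMϕ than in CD11cloMϕ by -1.20 ± 0.29 (adjusted p = 0.0351, 8.27% of 12305 genes called). No library of the lower population reached the higher one in these 3 cases, as for 8.1%, 10.5% and 4.57% of all genes in the same directions. Vcam1 was higher in KRM than in CD11chiMϕ by 2.55 ± 0.36 (adjusted p = 0.0176) and did not pass against CD11cloMϕ, at 1.30 ± 0.81 (adjusted p = 0.297). Every KRM library of RAS kidneys held more Cadm1 than every library of CD11cloMϕ, as for 22.4% of all genes, and of CD11chiMϕ, as for 15.3%, yet its differences of 2.35 ± 0.95 from CD11cloMϕ (adjusted p = 0.135) and 1.75 ± 0.55 from CD11chiMϕ (adjusted p = 0.0798) missed the threshold. With KRM RAS replicates 2 and 3 left out they were 2.93 (adjusted p = 0.375 by edgeR) and 2.34 (0.533). Without CD11cloMϕ RAS replicate 3 the difference between KRM and CD11cloMϕ was 3.82 for Cadm1 (adjusted p = 0.0184 by edgeR) and 2.57 for Vcam1 (adjusted p = 0.0244), and Cd24a was lower in CD11chiMϕ than in CD11cloMϕ at -1.68 (adjusted p = 0.0131). Without CD11chiMϕ RAS replicate 1, Cadm1 was 2.50 higher in KRM than in CD11chiMϕ (adjusted p = 0.00971 by edgeR). Without KRM RAS replicate 1 that difference was 1.30 for Cadm1, while Cd24a at 1.46 (adjusted p = 0.0131), Pecam1 at 1.23 (0.0499) and Selplg at -1.58 (0.0141) passed against CD11chiMϕ by edgeR and Selplg at -1.61 (0.0158) against CD11cloMϕ, where 19.6% and 23% of all genes were called. The directions of the first pair turned with KRM RAS replicate 1 alone, where Cd24a was at -3.20 (adjusted p = 0.267 by edgeR) and Pecam1 at -0.28 (0.856).

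The Cd44 differences kept their direction when any library was left out, but not their calls. With KRM RAS replicates 2 and 3 left out they were -2.57 against CD11cloMϕ (adjusted p = 0.193 by edgeR) and -1.36 against CD11chiMϕ (adjusted p = 0.509), and Vcam1 was 1.89 above CD11chiMϕ (adjusted p = 0.397). With KRM RAS replicate 2 or 3 alone left out, the calls of Cd44 and Vcam1 were lost, with adjusted p by edgeR from 0.0885 to 0.12. Those against CD11chiMϕ were lost without CD11chiMϕ RAS replicate 3 or 4 (Vcam1 0.0578 and 0.0691, Cd44 0.072 and 0.0689), and the one of Cd44 against CD11cloMϕ without CD11cloMϕ RAS replicate 2 (0.0549). The replicate block also ended both calls against CD11chiMϕ, at 2.45 for Vcam1 (adjusted p = 0.0650 by edgeR) and -1.59 for Cd44 (0.0730). Between CD11chiMϕ and CD11cloMϕ the call of Cd44 was lost without CD11chiMϕ RAS replicate 2, 3 or 4 or CD11cloMϕ RAS replicate 1, 2 or 4, with adjusted p by edgeR from 0.0611 to 0.108. The neutrophil marker sums that went with high Cd44 were 1422 to 2333 CPM in CD11cloMϕ from RAS kidneys against 0.720 to 13.7 CPM in KRM, with Ly6g near 0 in both, and their part was not tested.

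**Figure D5:**
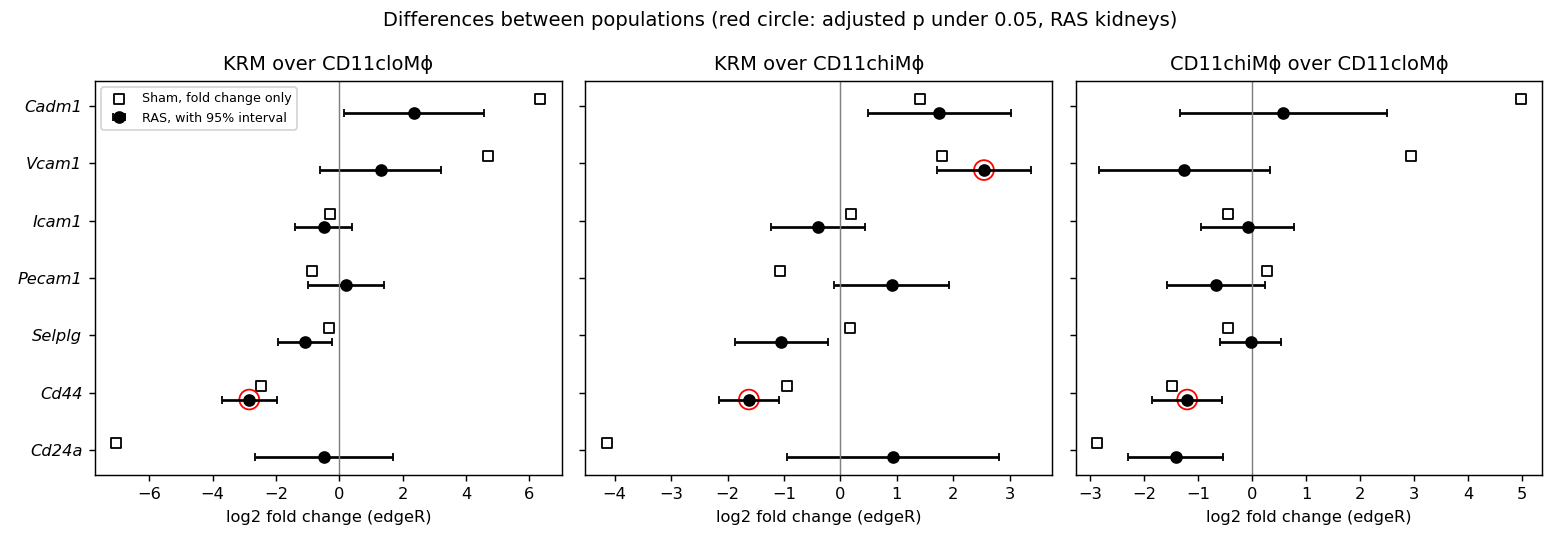
Log2 differences between populations for each member, as black points with 95% intervals from edgeR for RAS kidneys and as open squares without error or test for Sham kidneys, with red circles at an adjusted p under 0.05. Cd44 is circled in each panel and Vcam1 in KRM over CD11chiMϕ, and the Sham squares of Cadm1, Vcam1 and Cd24a lie beyond the RAS intervals in KRM over CD11cloMϕ.

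The other adhesion genes were read from lists chosen with earlier results of these data known. In KRM, RAS against Sham, 4 of 7 tested cadherins and epithelial adhesion molecules were called, all higher, where 7.77% of all genes were called higher, with a median log2 fold change over the list of 4.55 against 0.02 over all genes. Of these Epcam, an epithelial homophilic molecule, was at 7.27 (adjusted p = 0.0254 by edgeR), and Cdh1, E-cadherin, at 5.42 (adjusted p = 0.0307). Both genes are also expressed by tubular epithelium. Epcam was at 225 and 158 CPM in KRM RAS replicates 2 and 3 and at 5.13 CPM in replicate 1. Of 20 tested immunoglobulin-type molecules 6 were higher and 0 lower (median 1.37), with Ncam1, Cd2 and Cxadr ranking first. In the same comparison 7 of 8 tested general tubular epithelium markers and 8 of 8 T and natural killer cell markers were called higher. T and natural killer cells also express Cd2, and the part of either cell type in these lists was not tested. Ncam1 was counted in none of the Sham libraries. Of 15 tested partners and ligands of the members 2 were higher and 0 lower (median 0.07): Spp1, the secreted CD44 ligand osteopontin, at 6.81 (adjusted p = 0.0321 by edgeR), and Cd38, a ligand of CD31, at 2.14 (adjusted p = 0.0117). Spp1 was at 16.1, 14.3, 119 and 20.4 CPM in KRM from Sham kidneys and at 169, 8641 and 5878 CPM in KRM from RAS kidneys, so replicates 2 and 3 were far above replicate 1. Cd38 was at 7.20 to 12.8 CPM in Sham and at 34.1, 39.8 and 53.0 CPM in RAS, with all RAS libraries above. Enzymes that build selectin ligands had 1 of 8 lower (St3gal6 at -0.83, adjusted p = 0.0305 by edgeR), and leukocyte sialomucins and related glycoproteins had 1 of 10 higher (Cd34 at 2.78) and 2 lower (Spn at -1.22 and Cd81 at -0.84), where 1.94% of all genes were called lower. Of 6 tested hyaluronan receptors and CD44 linkers, Ezr, which ties CD44 to actin, was higher at 2.01 (adjusted p = 0.0398 by edgeR). Without KRM RAS replicates 2 and 3, an alternative chosen after seeing the data, 0 of 7 cadherins and epithelial molecules (median 0.92) and 1 of 20 immunoglobulin-type molecules (Cd2 at 7.24, adjusted p = 0.00186 by edgeR, median over the list 0.11) were called, where 1.3% of all genes were. Of 16 tested partners 1 was called higher (median 0.66), neither Spp1 nor Cd38, and 0 genes of the hyaluronan, sialomucin and selectin-ligand enzyme lists were called. Spp1 was then at 1.87 (adjusted p = 0.678), Cd38 at 1.76 (0.0523), Epcam at 2.72 (0.501), Cxadr at 1.69 (0.662), Cdh1 at 0.92 (0.811), Ezr at 0.21 (0.827), Cd34 at 1.01 (0.689), Spn at -0.65 (0.215), Cd81 at -0.65 (0.362) and St3gal6 at -0.53 (0.240), by edgeR.

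Partners were also compared between the populations of RAS kidneys, with the share of all genes called given for both directions together. Against CD11cloMϕ, 9 of 18 tested partners were lower in KRM and 2 higher, where 9.17% of all genes were called (median -2.16, against 0.06 over all genes), with Cd177, the neutrophil ligand of CD31, at -8.26 (adjusted p = 0.0180 by edgeR), the hyaluronan-binding proteoglycan gene Vcan at -6.25 (0.0374) and Siglecg, a lectin partner of CD24, at -5.40 (0.0267). Against CD11chiMϕ, 4 of 19 were lower and 1 higher, where 9.23% of all genes were called (median -1.19, against 0.03 over all genes), with Siglecg at -6.09 (adjusted p = 0.00533 by edgeR) and the integrin gene Itgb7, whose product with α4 also binds VCAM1, at -3.28 (0.0234). CD11chiMϕ had 3 of 17 partners lower than CD11cloMϕ, among them Vcan at -4.80 (adjusted p = 0.0190 by edgeR), and 0 higher, where 8.27% of all genes were called. Markers of other cells moved with these partners. In KRM against CD11chiMϕ 6 of 9 dendritic cell markers were lower and 0 higher, with sums of 157 to 232 CPM in KRM and 1316 to 4856 CPM in CD11chiMϕ, and Flt3, a receptor of dendritic cell precursors, was at -4.61 (adjusted p = 0.00700 by edgeR). In KRM against CD11cloMϕ all 7 monocyte markers and all 5 tested neutrophil markers were lower. Vcan is also a monocyte marker. The part of these cells in the partner values was not tested. Lyve1, a hyaluronan receptor, was lower in KRM than in CD11cloMϕ at -5.72 (adjusted p = 0.0147 by edgeR), and St3gal4, which sialylates selectin ligands, was lower in KRM than in both other populations, at -1.69 (0.0268) and -1.90 (0.0297). Without KRM RAS replicates 2 and 3, edgeR called 0 genes of the 6 lists in either comparison with KRM, with 0 of 14035 genes (0%) called against CD11chiMϕ and 6 of 13899 (0.0432%) against CD11cloMϕ. Siglecg was then at -6.11 and -5.42 (adjusted p = 0.258 and 0.275 by edgeR), Itgb7 at -2.45 against CD11chiMϕ (0.489), and Cd177 at -6.89 (0.162), Vcan at -5.49 (0.358) and Lyve1 at -6.09 (0.166) against CD11cloMϕ. St3gal4 was at -1.64 against CD11chiMϕ (0.541) and -1.44 against CD11cloMϕ (0.313).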

How the data were processed

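Macrophage RNA was amplified with SMART-Seq v4 and made into Nextera XT libraries, and the authors aligned paired-end reads to mm10 with the OmicSoft aligner and Ensembl gene models. The authors deposited estimated counts per gene, which were rounded to whole numbers here, and a second table of log2 values, log2(TPM + 1) after quantile normalization. Whether the counting used strand is not given in the sources used here. Lines sharing a name were summed (3730 of 37620). CPM is the share of all counts of a library, scaled to a common total. The 2 tables do not correspond for KRM RAS replicate 1 (r = 0.0902 between them, against 0.9155 or more for every other library). This touches values by limma. Which table is right for that library was not settled, so values that rest on its counts carry the same doubt.

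Tests used edgeR 4.0.16 in R 4.3.3 (TMM, filterByExpr with a minimum count of 10 and total of 15, quasi-likelihood F test, two-sided, Benjamini-Hochberg adjustment over all genes tested, threshold 0.05) on the libraries of the groups compared, in place of the authors' DESeq2 Wald test, run here as an alternative (DESeq2 1.42.0), with limma 3.58.1 on the deposited log2 table. The method was also run on simulated counts, but without transcripts of other cells moving together in single libraries. That run cannot vouch for the tests where libraries stand apart. Positions and merged exons are from GENCODE vM21 on GRCm38 and promoter windows from RefSeq, which matched 2 of the 7 members. Correlations used log2 CPM with a prior count of 2. Whether a shared replicate number pairs libraries was examined. Fits between the Sham populations serve for fold differences alone, with no test reported, but their libraries enter the differences of response, and there the deviations of same-numbered libraries correlated at 0.202 to 0.644, and 2, 5 and 6 of 6 libraries were closest to their own number (CD11chiMϕ and CD11cloMϕ, CD11chiMϕ and KRM, CD11cloMϕ and KRM). Between other groups not all were above 0.1. No pair of libraries within a group matched to within counting noise. Counts and intervals cover counting error and the spread of libraries, not amplification.

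The members and lists were chosen with earlier results of these data known, and the study's own text names several of them. Genes named beside the members are, for each list and comparison, up to 3 with the largest change among those with an adjusted p under 0.05 and groups that do not overlap, and the 3 most correlated genes per member. In the lists 195 of 199 genes were found, and 1 partner gene is not reported here.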

Additional observations from a re-analysis of the deposited data

Results flagged for a closer look

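A library stood apart in 2 of the 21 sets examined for a distant value, each holding 1 member in 1 group of 4 libraries. Chance gives about 1 in 20 for a single set, but the sets share libraries and are not independent. Cadm1 in CD11chiMϕ RAS replicate 1 was at 253 CPM, where the other 3 libraries were at 43.0 to 75.0 CPM, and its gap was 0.847 of the group's range (critical value 0.829). Cd24a in KRM Sham replicate 3 was at 6.24 CPM, where the other 3 were at 3.13 to 3.54 CPM, with a gap of 0.868 of the range. That library also had the proximal tubule sum of 2541 CPM and the distal nephron sum of 177 CPM. The RAS response of Cd24a differed between KRM and CD11cloMϕ by 6.56 on the log2 scale (adjusted p = 0.0394 by edgeR), with the limits given above.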

How the results depend on the processing

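The number of members called depended on the libraries and on the tool. No change called in the report's own test of all libraries turned its direction under any alternative run, but Cd24a and Pecam1 for KRM against CD11chiMϕ, called without KRM RAS replicate 1, were negative with replicates 2 and 3 left out. By DESeq2 the calls were 1 in CD11chiMϕ, 1 in CD11cloMϕ and 5 in KRM for RAS against Sham, 4 for KRM against CD11chiMϕ, 2 for KRM against CD11cloMϕ and 2 for CD11chiMϕ against CD11cloMϕ in RAS kidneys, and 2 for each difference of response that involved KRM. DESeq2 also called more of all genes, 24.6% in KRM against 9.7% by edgeR, 20.8%, 24.4% and 16.7% in the 3 comparisons between populations, and 8.67% and 10.2% for the responses of KRM minus CD11chiMϕ and minus CD11cloMϕ. With limma on the log2 table, at either pseudocount, they were 4 for RAS against Sham in KRM, 1 for KRM against CD11chiMϕ, 1 for the response of KRM minus CD11chiMϕ and 3 for that of KRM minus CD11cloMϕ, where limma called 18.5%, 4.08%, 0.949% and 10.4% of all genes, and with KRM RAS library 1 left out of those values there were 5 for RAS against Sham in KRM, 4 and 2 for KRM against CD11chiMϕ and CD11cloMϕ, and 2 and 3 for the same differences of response, with 52.5%, 17%, 25%, 7.8% and 28% of all genes called. With 1 fit over all 6 groups they were 1 in KRM, 2 for KRM against CD11cloMϕ and 1 for the response of KRM minus CD11chiMϕ, with 7.82%, 12.7% and 0.11% of all genes called. No filter and a minimum of 10 counts in every library each gave 2 for CD11chiMϕ against CD11cloMϕ, with 5.11% and 8.61% of all genes called. A fold above 2 with an unadjusted p, met by 4.37% to 20.8% of all genes in these comparisons, gave 1 in CD11chiMϕ, 2 in CD11cloMϕ, 2 in KRM (Icam1 was lost), 4, 3 and 2 for KRM against CD11chiMϕ, KRM against CD11cloMϕ and CD11chiMϕ against CD11cloMϕ, and 2, 3 and 3 for the responses of KRM minus CD11chiMϕ, KRM minus CD11cloMϕ and CD11chiMϕ minus CD11cloMϕ. Leaving out KRM RAS libraries 2 and 3, an alternative chosen after seeing the data, gave 0 in all comparisons with KRM. Leaving out 1 library at a time gave 0 to 5 in KRM, 0 to 5 for KRM against CD11chiMϕ, 0 to 3 for KRM against CD11cloMϕ, 0 to 2 for CD11chiMϕ against CD11cloMϕ, 0 to 2 for the response of KRM minus CD11chiMϕ and 0 to 3 for that of KRM minus CD11cloMϕ. Over the same settings the share of all genes called ran from 0.204% to 50.2%, 0.103% to 19.6%, 0% to 23%, 2.02% to 17.3%, 0% to 7.4% and 0% to 16.1% in the same order. The cause of these changes was not tested.

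The replicate block gave 0 members in KRM, 0 for KRM against CD11chiMϕ and 0 for the response of KRM minus CD11cloMϕ, and kept the calls of Cd44 against CD11cloMϕ. Replicate numbers are not stated to mark shared mice or days. Correlations of same-numbered deviations ran from -0.162 to 0.205 between Sham and RAS in KRM. They ran from 0.0565 to 0.367 between CD11chiMϕ and KRM of RAS kidneys and from 0.0745 to 0.507 between CD11cloMϕ and KRM of RAS kidneys. In these pairs 2, 4 and 5 of 6 libraries correlated best with their own number. Between CD11chiMϕ and CD11cloMϕ of RAS kidneys 6 of 8 did, with correlations from 0.0692 to 0.2497. Whether the numbers pair the populations of RAS kidneys was not settled. The main tests used no pairing, and the replicate block is the alternative that does. The block also ended the call of Cd24a for the response of KRM minus CD11cloMϕ, where it was 6.01 (adjusted p = 0.138 by edgeR). With 3 or 4 libraries a group, the precision was set by the spread between libraries more than by depth.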
